A study of Mus musculus with 47 samples.

Results

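The comparison covered 8 liver RNA-seq libraries from CAST/EiJ female mice, 4 from animals on a 44% fat diet and 4 from animals on a 10% fat control diet, out of 47 libraries in the series. The 8 were chosen as every library whose title gives the strain CAST/EiJ and the letter F, and the sex field of each reads female. CAST/EiJ is an inbred strain derived from wild mice, and the labels give all groups as wild type (WT) with no other treatment. Both diets carry the words "+ fiber" in the labels, and the 44% fat diet is also described as high in sugar, so fat and sugar cannot be told apart here. Feeding began at week 6 of age and tissue was taken at week 15. CAST/EiJ males (3 libraries on 10% fat and 4 on 44% fat), C57BL/6J females and NZO/HlLtJ females (4 libraries on each diet, also WT) served as comparison groups on the same diets. C57BL/6J is the reference laboratory strain, and NZO/HlLtJ is a strain prone to obesity.

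The liver makes cholesterol and fatty acids when little of them arrives in food, and burns fatty acids in mitochondria and peroxisomes when they are plentiful. Sterol regulatory element-binding proteins (SREBPs) switch on the genes of synthesis, and the fatty acid receptor PPAR-alpha switches on many genes of oxidation. The liver also secretes hepcidin, the hormone that limits iron uptake, and acute phase proteins such as serum amyloid A. Mouse livers further carry many genes that differ by sex under the pattern of growth hormone release.

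Total counts in the 8 libraries (in M reads) ran from 30.6 to 41.1, within the 21.6 to 47.8 of all 47, and 16650 of 20320 genes passed the filter on low counts. Log2 levels of library pairs correlated across genes at 0.977 to 0.986 within a diet and 0.976 to 0.985 between diets. Xist, transcribed from the inactive X chromosome, stood at 834 to 1260 CPM (counts scaled to a common library size) in the 8 libraries, and the Y-linked Uty and Kdm5d were at or below 0.0966 CPM. The 10 hepatocyte markers summed to 125000 to 156000 CPM on 10% fat and 110000 to 141000 CPM on 44% fat. Markers of pancreatic acinar cells (7 of a list of 15 are in the table) summed to 1.2 to 46.2 CPM on 10% fat, but reached 561 CPM in 44% fat replicate 2 and 72.5 CPM in replicate 3. All 7 acinar genes had positive fold changes for diet (median log2 3.53) and none passed the test (smallest adjusted p = 0.273, edgeR); their part in other results was not tested. Whether each library is a separate animal is not stated in the labels, and the p-values cover only the variation among these libraries, which may be technical. The sample identifiers fall into 3 runs of consecutive numbers, which the labels do not explain. Control replicates 1 and 2 are in runs 1 and 2 and control replicates 3 and 4 in run 3, while 44% fat replicate 1 is in run 1, replicates 2 and 3 in run 2 and replicate 4 in run 3. In bulk liver, fewer cells of a type and less RNA per cell cannot be told apart.

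A gene was called at an adjusted p under 0.05 (edgeR quasi-likelihood test, Benjamini-Hochberg over all tested genes), and log2 fold changes are 44% fat minus 10% fat, given with their standard error. Few genes were called for diet, 33 of 16650 (0.198%), with 19 higher (0.114%) and 14 lower (0.0841%) on 44% fat. An unadjusted p under 0.05 was found for 1490 genes, and genes without a call are not shown to be unchanged. Of the 33, 24 differed by at least 1.5-fold. The count depended on single libraries and on the tool: it was 6 without control replicate 4, 163 without control replicate 2, and 89 in DESeq2. All 4 libraries on 44% fat lay above all 4 on 10% fat for 355 genes (2.13%) and below them for 303 (1.82%), and the median log2 fold change of all genes was 0. Higher were serum amyloid genes (Saa1, Saa2), the male-biased fatty acid hydroxylases Cyp4a12a and Cyp4a12b, and genes of fatty acid handling and detoxification (Acsf2, Fabp2, Ephx2, Gpx3). Lower were hepcidin (Hamp), the peroxisomal oxidase gene Hao2, the basement membrane gene Fras1, the thyroid hormone receptor gene Thra and the histidine-degrading enzyme gene Hal.

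**Figure D1:**
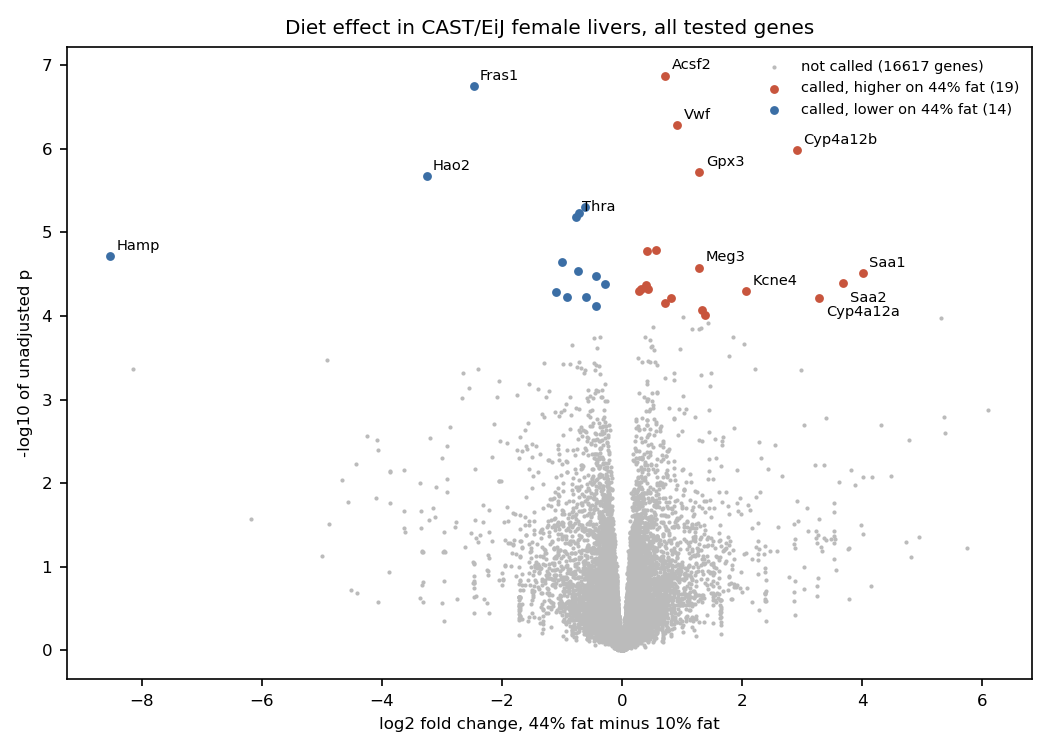
Log2 fold change (44% fat minus 10% fat, x axis) against −log10 of the unadjusted p (y axis) for the 16650 tested genes of CAST/EiJ females; coloured points are the 33 called genes. Hamp lies far to the left at -8.52, and Saa1, Saa2, Cyp4a12a and Cyp4a12b lie farthest to the right among the called genes.

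Sequence upstream of the start is shown for the serum amyloid pair and for hepcidin, the genes with some of the largest called differences, because both are textbook cases of control through their upstream DNA. The windows are the 250 bases before each RefSeq start in build GRCm38.p6, written 5′ to 3′ on the gene's own strand. Hamp is at chr7:30944030-30944279 on the minus strand, Saa1 at chr7:46742981-46743230 on the minus strand and Saa2 at chr7:46751583-46751832 on the plus strand. Capitals mark matches to the STAT motif TTCNNNGAA, the BMP-responsive motif GGCGCC and the C/EBP motif TTGCNNAA, searched on both strands.
Hamp: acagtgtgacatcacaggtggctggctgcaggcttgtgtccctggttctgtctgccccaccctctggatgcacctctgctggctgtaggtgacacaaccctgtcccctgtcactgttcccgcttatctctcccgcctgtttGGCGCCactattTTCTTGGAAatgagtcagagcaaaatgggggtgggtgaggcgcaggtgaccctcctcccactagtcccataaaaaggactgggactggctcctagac
Saa1: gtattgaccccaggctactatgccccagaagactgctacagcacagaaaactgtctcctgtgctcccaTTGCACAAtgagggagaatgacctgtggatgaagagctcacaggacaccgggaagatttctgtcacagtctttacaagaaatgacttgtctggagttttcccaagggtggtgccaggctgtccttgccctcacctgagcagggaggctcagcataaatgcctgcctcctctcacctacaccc
Saa2: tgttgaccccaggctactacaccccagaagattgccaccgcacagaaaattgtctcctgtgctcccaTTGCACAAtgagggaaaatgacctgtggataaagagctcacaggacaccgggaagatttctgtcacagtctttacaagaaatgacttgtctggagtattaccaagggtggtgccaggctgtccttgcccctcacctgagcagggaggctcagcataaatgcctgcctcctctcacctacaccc
The Hamp window held GGCGCC starting 109 bases and TTCTTGGAA starting 97 bases before the start, without overlap between them. The Saa1 and Saa2 windows each held TTGCACAA, starting 182 and 183 bases before the start, and were identical at 94.8% of 251 aligned positions. Among 32851 windows of the same length, 7.02% held the STAT motif, 9.59% the BMP-responsive motif and 9.56% the C/EBP motif. An NF-kappaB motif was searched on both strands too, but as a fixed sequence without the open positions (N) of the STAT and C/EBP motifs. It was found in 0.14% of windows and had no match in these 3. Variant forms of the NF-kappaB site were not searched, so the lack of a match does not show that such sites are absent. The matches are a description of the letters and were not tested for binding. The windows are those of the reference build, and differences of CAST/EiJ mice from it were not checked.

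Saa1 and Saa2 encode serum amyloid A, an acute phase apolipoprotein of high-density lipoprotein, and lie head to head on chromosome 7 (Saa1 at chr7:46740499-46742980, Saa2 at chr7:46751833-46754314, GRCm38). Saa1 stood at 0.966, 2.48, 1.03 and 1.33 CPM in 10% fat replicates 1 to 4 and at 49.7, 13, 2.67 and 29.1 CPM in 44% fat replicates 1 to 4. All 4 libraries on 44% fat were above all 4 on 10% fat, but replicate 3 on 44% fat was close to the control range. Saa1 rose by 4.01 ± 0.84 on the log2 scale (adjusted p = 0.0318, edgeR). Saa2 stood at 1.03, 2.93, 1.14 and 1.48 CPM on 10% fat and at 42, 10.9, 2.51 and 30.4 CPM on 44% fat. The same replicate 3 fell inside the control range for Saa2, so the groups overlapped, and the rise was 3.69 ± 0.79 (adjusted p = 0.0342, edgeR). Only 9.11% of the 50-base windows of the longest coding Saa1 reference transcript also occur in that of Saa2 (8.46% in the other direction). Most reads of the reference sequence could thus be told apart if they map over their whole length. Differences of CAST/EiJ transcripts from the reference were not checked.

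Of 26 genes on the acute phase list, Saa1 and Saa2 were the 2 called higher and 0 were called lower, and the list's median log2 fold change was 0.04. Both Saa genes lost their call in 5 of the 8 refits that each left out 1 library, with adjusted p up to 0.143 for Saa1 without 10% fat replicate 4.

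Hamp (chr7:30942368-30944032) encodes hepcidin, which blocks export of iron from gut cells and macrophages. Its counts were 1091, 7, 1 and 717 reads in 10% fat replicates 1 to 4 and 0, 1, 0 and 4 reads in 44% fat replicates 1 to 4. In CPM these were 35.1, 0.195, 0.0293 and 18.7 on 10% fat and 0, 0.0292, 0 and 0.0994 on 44% fat. Control replicates 1 and 4 had many Hamp reads and control replicates 2 and 3 almost none, so the diets overlapped. The fitted log2 fold change was -8.52 ± 1.73 (adjusted p = 0.0268, edgeR). A fitted fold against libraries near 0 depends on the prior count and is no measure of size, and the call held in 3 of 8 refits that each left out 1 library. It was lost without control replicate 1 or 4 and without 44% fat replicate 2, 3 or 4, with an adjusted p up to 0.097 (edgeR, without control replicate 1). CAST/EiJ males also had libraries without Hamp reads, with 0 to 18.8 CPM on 10% fat and 0 to 1.12 CPM on 44% fat. Females of the other strains had Hamp in every library. C57BL/6J females had 99.2 to 407 CPM on 10% fat and 141 to 303 CPM on 44% fat, and NZO/HlLtJ females had 136 to 580 and 41.2 to 162 CPM. Whether reads of the strains were counted equally well was not tested.

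Hamp was the 1 called gene among 18 tested genes of iron handling, whose median log2 fold change was 0.02. Bmp6, the ligand from endothelial cells that induces hepcidin, stood at 2.32, 1.45, 2.08 and 1.56 CPM on 10% fat and at 0.849, 0.788, 0.975 and 1.04 CPM on 44% fat. All 4 libraries on 44% fat lay below all 4 controls, but the difference of -1.01 ± 0.29 did not pass (adjusted p = 0.17, edgeR).

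Cyp4a12b (chr4:115411624-115439034) and Cyp4a12a (chr4:115299046-115332815) encode cytochrome P450 enzymes that hydroxylate fatty acids at the end of the chain and are known for high levels in male mouse liver. Cyp4a12b stood at 1.8, 3.15, 5.07 and 2.58 CPM on 10% fat and at 32.2, 11.3, 15.5 and 36.1 CPM on 44% fat. No library of either diet overlapped the other, and the gene rose by 2.91 ± 0.50 (7.53-fold, adjusted p = 0.0043, edgeR). Cyp4a12a stood at 0.193, 0.223, 0.615 and 0.208 CPM on 10% fat and at 5.15, 0.467, 1.56 and 4.95 CPM on 44% fat. Here 44% fat replicate 2 lay below control replicate 3, and the rise was 3.29 ± 0.72 (adjusted p = 0.0354, edgeR). About as many 50-base windows are shared by the 2 genes' transcripts as are not (48.9% of Cyp4a12a and 49.4% of Cyp4a12b), so how the authors' counting divided reads between them is uncertain. Replicates 1 and 4 on 44% fat, the highest for both Cyp4a12 genes, were also the highest for Saa1 and Saa2.

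The levels on 44% fat lay below those of every male library of the strain. CAST/EiJ males had 293 to 321 CPM of Cyp4a12b on 10% fat and 393 to 453 CPM on 44% fat, against 11.3 to 36.1 CPM in females on 44% fat. For Cyp4a12a, males had 722 to 954 CPM on 10% fat. Of the male-biased list, 2 of 23 tested genes, these 2, were called higher and 0 lower, with a median log2 fold change of 0.35, which was 0.12 without control replicate 4 and 0.01 within run 1 alone. Elovl3, a male-biased fatty acid elongase gene, stood at 1.71, 0.838, 1.2 and 1.17 CPM on 10% fat and at 5.21, 2.63, 3.59 and 3.5 CPM on 44% fat. Every library on 44% fat was above every control, but 1.61 ± 0.61 did not pass (adjusted p = 0.371, edgeR).

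Hao2 (chr3:98874521-98893239), a peroxisomal hydroxyacid oxidase gene known for higher levels in female mouse liver, went the other way. It stood at 3.96, 1.01, 2.11 and 2.58 CPM on 10% fat and at 0.311, 0.146, 0.462 and 0.0746 CPM on 44% fat. The groups did not overlap, and Hao2 fell by 3.25 on the log2 scale (SE 0.58, adjusted p = 0.00585, edgeR). The counts behind the lowest library were 3 reads, so its level is known only roughly. Control females of the other strains had 31.6 to 61.7 CPM (C57BL/6J) and 109 to 164 CPM (NZO/HlLtJ), above every CAST/EiJ female library. How well reads of each strain match the sequence used for counting was not tested, so levels between strains are uncertain. Of the 26 tested female-biased genes, Hao2 was the 1 called lower and 0 were called higher, with a median of 0.06.

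**Figure D2:**
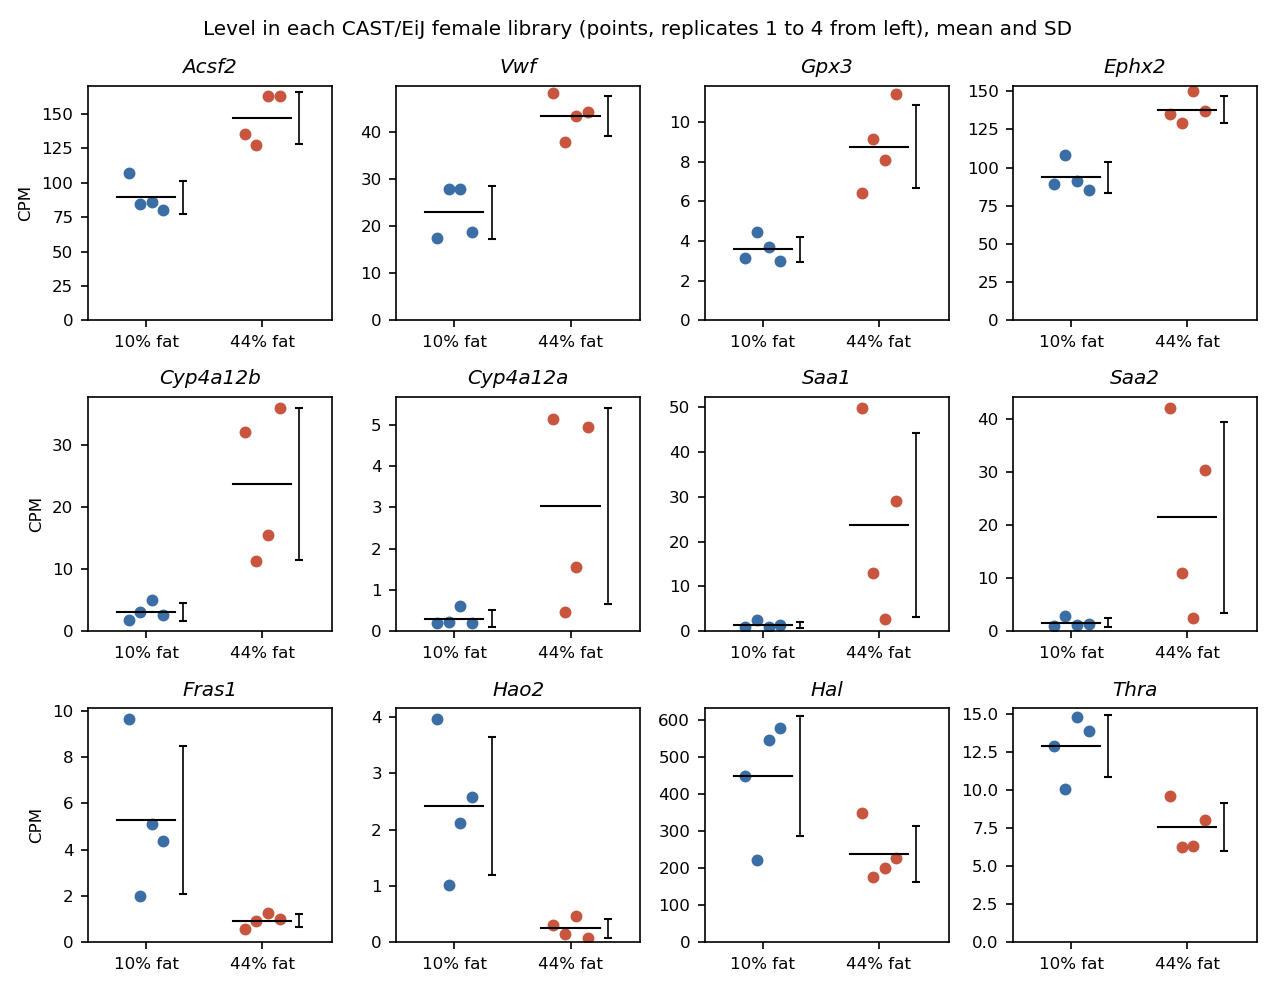
CPM (y axis, linear from 0) of 12 called genes in each library of CAST/EiJ females on 10% fat (blue) and 44% fat (red), with the mean (bar) and SD (whisker) of 4 libraries. Acsf2, Vwf, Gpx3, Ephx2, Cyp4a12b, Saa1, Fras1, Hao2 and Thra do not overlap between diets, whereas Cyp4a12a, Saa2 and Hal do.

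Among genes of lipid handling and detoxification, Acsf2 had the smallest p of all genes. Acsf2 (chr11:94557102-94601871) encodes a mitochondrial enzyme that joins medium-chain fatty acids to coenzyme A. It stood at 107, 84.5, 86.1 and 79.8 CPM on 10% fat and at 135, 127, 163 and 163 CPM on 44% fat. All 4 libraries on 44% fat exceeded all controls, and Acsf2 rose by 0.72 ± 0.11 (1.64-fold, adjusted p = 0.00147, edgeR). Its span overlaps that of Chad, a cartilage matrix gene at under 1 CPM on both diets. Annotated spans of 6 of the 33 called genes overlap another tested gene (among them Fras1, Thra, Fabp2 and Pfkm), and whether counting used strand is not given in the sources used here. Fabp2, a fatty acid-binding protein gene, stood at 57.8, 91.4, 69.4 and 67.3 CPM on 10% fat and at 111, 136, 125 and 130 CPM on 44% fat. It rose by 0.81 ± 0.18 without overlap (adjusted p = 0.0354, edgeR), the 1 called gene of 19 on the list of fatty acid uptake and binding, whose median was 0.01. Of 8 markers of intestinal epithelium, 3 are in the table, and they summed to 449 to 531 CPM on 10% fat and 571 to 944 CPM on 44% fat without overlap. Nearly all of this was Apoa4, an apolipoprotein gene that liver also expresses (0.60, adjusted p = 0.76, edgeR), and Vil1 was at or below 0.255 CPM. Their part in the result for Fabp2 was not tested.

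Ephx2 encodes the soluble epoxide hydrolase, which turns fatty acid epoxides into diols. It stood at 89, 108, 91.4 and 85.6 CPM on 10% fat and at 135, 129, 150 and 137 CPM on 44% fat, a rise of 0.56 ± 0.11 without overlap (adjusted p = 0.0254, edgeR). Gpx3, the gene of the secreted plasma glutathione peroxidase, stood at 3.16, 4.44, 3.69 and 3.02 CPM on 10% fat and at 6.43, 9.16, 8.08 and 11.4 CPM on 44% fat. Every library on 44% fat was again above every control, and Gpx3 rose by 1.29 ± 0.23 (2.45-fold, adjusted p = 0.00585, edgeR).

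Fras1 (chr5:96373955-96784728) encodes a basement membrane protein that anchors epithelia. It stood at 9.66, 2.01, 5.13 and 4.37 CPM on 10% fat and at 0.566, 0.904, 1.28 and 1.02 CPM on 44% fat. No libraries overlapped, and Fras1 fell by 2.47 on the log2 scale (SE 0.39, adjusted p = 0.00147, edgeR). Vwf (chr6:125546774-125686679) encodes von Willebrand factor, the clotting protein of blood vessel walls. It stood at 17.4, 27.8, 27.8 and 18.7 CPM on 10% fat and at 48.2, 37.8, 43.4 and 44.3 CPM on 44% fat, a rise of 0.92 ± 0.15 without overlap (1.89-fold, adjusted p = 0.00289, edgeR). Of 12 tested endothelial markers, Vwf was the 1 called, 9 had negative fold changes and the median was -0.22 (-0.14 without 44% fat replicate 2, -0.05 within run 3 alone). Stab1 and the sinusoidal receptor gene Fcgr2b lay below all controls in all 4 libraries on 44% fat without passing (Fcgr2b at -0.53 ± 0.15, adjusted p = 0.167, edgeR). The 12 markers summed to 450 to 474 CPM on 10% fat and 336 to 472 CPM on 44% fat, and the part of endothelial cell number in these values was not tested.

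Thra encodes thyroid hormone receptor alpha. It stood at 12.9, 10.1, 14.8 and 13.9 CPM on 10% fat and at 9.6, 6.3, 6.36 and 8.08 CPM on 44% fat, and fell by 0.77 on the log2 scale without overlap (SE 0.15, adjusted p = 0.0122, edgeR). Thra shares genomic sequence on the opposite strand with the clock gene Nr1d1, which lay below all controls in all 4 libraries on 44% fat, at -0.81 ± 0.36 (adjusted p = 0.495, edgeR). Reads of these genes cannot be told apart where counting ignores strand, so the fall of Thra is uncertain. Thra was the 1 called gene of 27 tested nuclear receptors and partners (median -0.06).

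Hal encodes histidine ammonia-lyase, which starts the breakdown of histidine and is a marker of periportal hepatocytes, the cells around the portal vein. It stood at 448, 221, 545 and 578 CPM on 10% fat and at 349, 177, 200 and 227 CPM on 44% fat. Control replicate 2 lay among the libraries on 44% fat, so the groups overlapped, and Hal fell by 0.91 on the log2 scale (SE 0.20, adjusted p = 0.0354, edgeR). Of 10 periportal markers, Hal was the 1 called, 9 had negative fold changes and the median was -0.49 (-0.16 within run 1 alone). In 6 of the 10, all 4 libraries on 44% fat lay below all controls, among them Gls2, Sds and Ass1 (-0.50, -0.72 and -0.47), against 1.82% of all genes. The 10 markers summed to 9370 to 13400 CPM on 10% fat and 8930 to 10200 CPM on 44% fat, with overlap. Of 10 pericentral markers none was called, 9 had positive fold changes and the median was 0.25 (0.15 without control replicate 1, 0.12 and 0.06 within runs 2 and 3 alone). Gulo, of vitamin C synthesis, was the 1 pericentral marker with all libraries on 44% fat above all controls, at 0.38 ± 0.13 (adjusted p = 0.273, edgeR).

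Amino acid catabolism as a whole gave 1 call in 39 tested genes, again Hal, with 34 negative fold changes and a median of -0.17 (-0.11 without control replicate 4, 0.09 and -0.27 within runs 1 and 3 alone). Got1, the cytosolic aspartate aminotransferase gene, stood at 385, 578, 612 and 548 CPM on 10% fat and at 287, 288, 368 and 329 CPM on 44% fat, below all controls, at -0.74 ± 0.28 without passing (adjusted p = 0.351, edgeR). Without 44% fat replicate 1, 4 genes of this list were called lower, namely Hal, Amdhd1, Cbs and Agxt, among 32 called lower of all 16631 genes in that refit. Without control replicate 2, Hal and Amdhd1 were called, among 93 called lower of all 16623 genes. No gene of the list was called in the other refits that left out 1 library. Hal thus held its call in 2 of 8 refits, with an adjusted p up to 0.245 (edgeR, without control replicate 4).

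The remaining called genes of the naming rule were spread over many functions. Gpc1 (glypican 1, a cell surface proteoglycan) rose by 1.38 ± 0.32, from 4.67 to 6.7 CPM on 10% fat to 12.8 to 16.7 CPM on 44% fat. Meg3, an imprinted long non-coding RNA, rose by 1.29 ± 0.27, with 3.52 to 5.95 CPM on 10% fat and 6.21 to 13.6 CPM on 44% fat. Hist1h2be, a histone H2B gene, rose by 1.33 ± 0.30 with overlapping groups. Lower and not overlapping were Pla1a (a phosphatidylserine phospholipase, by 0.62), Cul7 (a ubiquitin ligase scaffold, by 0.71), Stard8 (a GTPase-activating protein, by 0.60) and Pfkm (muscle-type phosphofructokinase, by 0.44). Lower but overlapping were Slco2a1 (a prostaglandin transporter, by 0.73), Papln (papilin, a matrix protein, by 1.10), Faap100 (a Fanconi anaemia complex member, by 1.00), Dock9 (an activator of the GTPase Cdc42, by 0.44) and Ipo9 (an importin, by 0.29). The adjusted p of these 12 genes ran from 0.0118 (Pla1a) to 0.0495 (Gpc1) in edgeR. With the identifier run as a covariate, Gpc1, Stard8, Pfkm and Hist1h2be were no longer called (adjusted p = 0.0672, 0.0622, 0.0672 and 0.0659, edgeR). Gpc1 also lost its call with other scaling, without the filter on low counts and with a clock gene score as covariate (adjusted p = 0.051, 0.0644 and 0.0539, edgeR). Pfkm lost it without that filter too (adjusted p = 0.0625, edgeR). Kcne4, a potassium channel subunit gene, was named after its values were seen, because its level is below the naming rule's minimum, and rose by 2.07 ± 0.46 from 0.146 to 0.168 CPM on 10% fat to 0.436 to 0.904 CPM on 44% fat (adjusted p = 0.0342, edgeR). Also named after the fact were Bsg (basigin, partner of lactate transporters, at 0.41), Cipc (a partner of CLOCK, at 0.40), Ttc13 (at 0.31) and Mapk14 (the stress kinase p38 alpha, at 0.28), all called higher.

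Genes of cholesterol synthesis lay lower on 44% fat without a single call. All 20 tested genes of the list had negative fold changes and the median was -0.83, against 0 for all genes, but 0 of 20 passed and the smallest adjusted p was 0.098. In 5 of the 20 all 4 libraries on 44% fat lay below all 4 controls, against 1.82% of all genes. Sqle, squalene epoxidase and a rate-controlling step, stood at 15.5, 4.41, 9.87 and 15.5 CPM on 10% fat and at 1.59, 2.36, 2.85 and 1.74 CPM on 44% fat. The groups did not overlap, and the difference was -2.40 ± 0.62 (adjusted p = 0.098, edgeR). Cyp51, lanosterol demethylase, stood at 26.9, 14.2, 19.7 and 22.4 CPM on 10% fat and at 4.93, 5.75, 13.7 and 7.11 CPM on 44% fat, at -1.40 ± 0.38 (adjusted p = 0.137, edgeR). Msmo1, a methylsterol oxidase, was at -1.74 ± 0.48 (adjusted p = 0.142, edgeR) and also did not overlap. In Hmgcs1, an early step of the pathway, the groups overlapped, at -0.86 ± 0.38 (adjusted p = 0.494, edgeR).

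Within runs 1, 2 and 3 alone the median of the cholesterol synthesis list was -1.02, -0.09 and -1.23, and control replicate 2 is the 1 control of run 2. The number of calls also turned on that library. Taken as deviations in log2 CPM from each gene's mean over the controls, the list's median was 0.23, 0.16 and 0.15 in control replicates 1, 3 and 4 but -0.53 in replicate 2, and -0.75, -0.89, -0.45 and -1.01 in the 4 libraries on 44% fat. Without replicate 2, 5 genes of the list were called lower, namely Sqle, Cyp51, Msmo1, Dhcr7 and Tm7sf2, and the median was -1.03. That refit left out the control nearest to the 44% fat libraries for this list, and it called 163 of all 16623 genes, 93 of them lower. DESeq2 on all libraries called Sqle, Cyp51, Msmo1 and Dhcr7 lower, among 39 called lower of all 16650 genes. Of 20 tested genes of sterol sensing, uptake and efflux none was called (median -0.12, nearer 0 within runs 2 and 3 alone and without control replicate 2 or 3). Insig1, which holds SREBPs back when sterols are plentiful, was at -1.23 ± 0.42 and the SREBP gene Srebf2 at -0.29 ± 0.13, both overlapping and without a call.

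**Figure D3:**
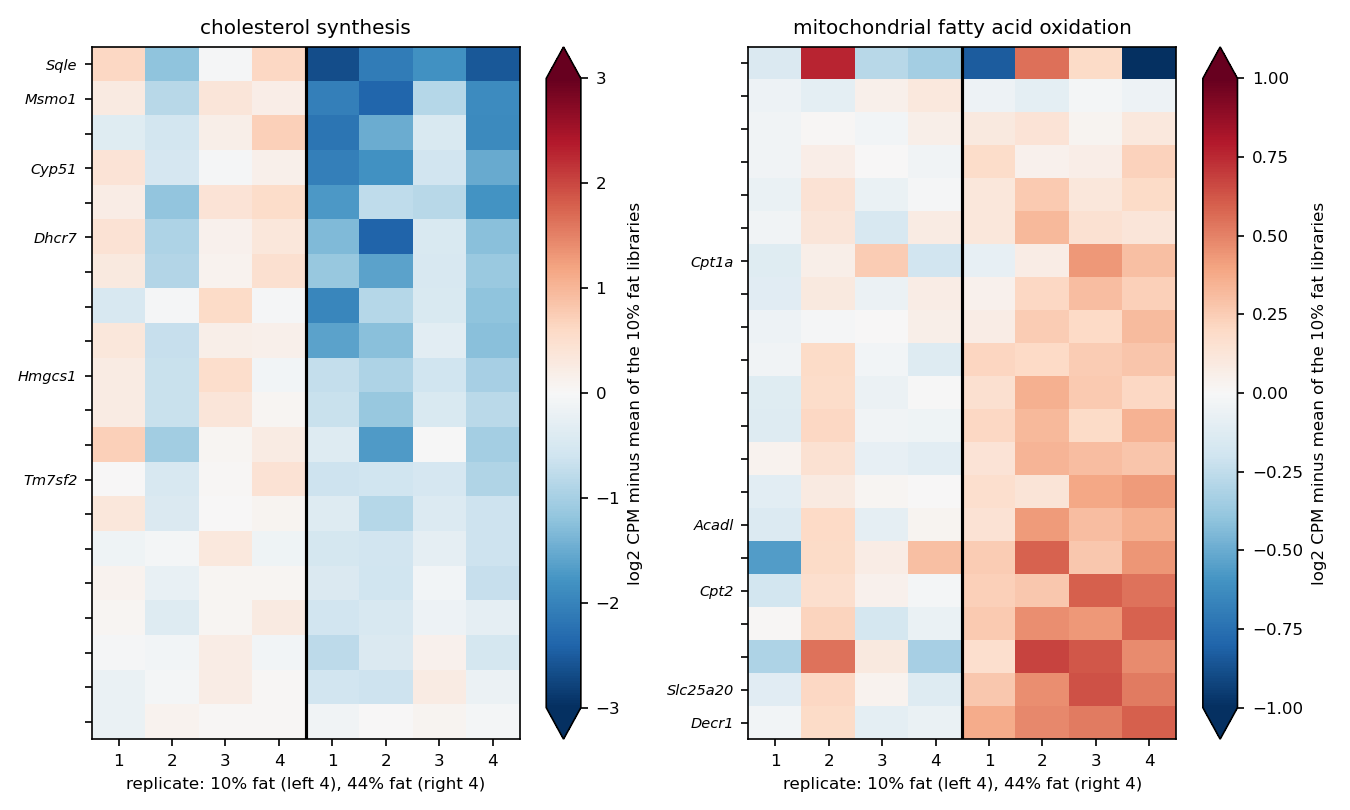
Log2 CPM of each gene minus its mean over the 10% fat libraries (colour; the 2 scales differ, and values past the ends take the end colour), for genes of cholesterol synthesis (left) and mitochondrial fatty acid oxidation (right) in the 8 libraries; some of the genes are labelled. Control replicate 2 is low for most sterol genes (list median -0.53) and high for most oxidation genes (0.17), nearer to the 44% fat libraries than the other controls.

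Fatty acid synthesis showed the same control replicate apart, and no call in 22 tested genes (median -0.36, with -0.54 and 0.29 within runs 1 and 2 alone). Fasn, fatty acid synthase, stood at 1990, 515, 1430 and 1970 CPM on 10% fat and at 514, 380, 918 and 551 CPM on 44% fat. Control replicate 2 was as low as the libraries on 44% fat, and the difference was -1.32 ± 0.54 (adjusted p = 0.424, edgeR). Scd1, a desaturase, was at -0.73 ± 0.52, Acaca, which makes malonyl-CoA, at -0.75 ± 0.37, and their regulator Srebf1 at -0.35 ± 0.33, and none passed.

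Genes of fatty acid oxidation lay slightly higher, also without a call. Of 21 tested mitochondrial genes 19 had positive fold changes, with a median of 0.24, and in 7 all 4 libraries on 44% fat lay above all controls, against 2.13% of all genes. Decr1, which reduces unsaturated intermediates, stood at 82.7, 96.5, 79 and 80.4 CPM on 10% fat and at 109, 118, 121 and 128 CPM on 44% fat. The libraries did not overlap, and the difference was 0.49 ± 0.12 (adjusted p = 0.0801, edgeR). Cpt2 and the carnitine carrier Slc25a20 were at 0.41 ± 0.11 and 0.47 ± 0.14, also without overlap, while Cpt1a, the entry step, was at 0.18 ± 0.19 and overlapped. Of 20 peroxisomal genes, 17 were positive (median 0.26) and 5 did not overlap, led by Hsd17b4, the bifunctional enzyme, with 356 to 415 CPM on 10% fat and 456 to 542 CPM on 44% fat (0.38 ± 0.09, adjusted p = 0.0691, edgeR). In 5 of 7 genes of ketone bodies all 4 libraries on 44% fat exceeded all controls, among them Acat1, a mitochondrial acetoacetyl-CoA thiolase gene, at 0.44 (adjusted p = 0.223, edgeR) and Bdh1, which makes beta-hydroxybutyrate, at 0.33 (adjusted p = 0.375, edgeR). Without control replicate 2, Decr1, Cpt2, Hsd17b4 and Ech1 were called higher, among 70 called higher of all 16623 genes in that refit. That refit left out the control nearest to the 44% fat libraries for both oxidation lists (median deviations 0.17 and 0.13). Over all 8 refits that left out 1 library, Decr1, Cpt2 and Ech1 were called in 1 and Hsd17b4 in 2.

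Targets of PPAR-alpha were at positive fold changes in 28 of 30 tested genes, with a median of 0.29 and 0 calls. The median was 0.44 without control replicate 2 (where Acot1 was called higher), 0.18 without 44% fat replicate 3, and 0.11 and 0.50 within runs 2 and 3 alone. Cyp4a31 stood at 28.1, 37.8, 27.1 and 36.4 CPM on 10% fat and at 50.6, 97.1, 110 and 102 CPM on 44% fat, without overlap, at 1.47 ± 0.40 (adjusted p = 0.13, edgeR). Cyp4a14, a strongly inducible hydroxylase gene, was at 28.7 to 191 CPM on 10% fat and 161 to 270 CPM on 44% fat, at 1.31 ± 0.68 and overlapping. Pdk4, which blocks glucose oxidation, was at 0.02 ± 0.73, with single high libraries on each diet, 84 CPM in control replicate 2 and 87.4 CPM in 44% fat replicate 3. Fgf21, a fasting hormone, was at -0.52 ± 0.74.

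**Figure D4:**
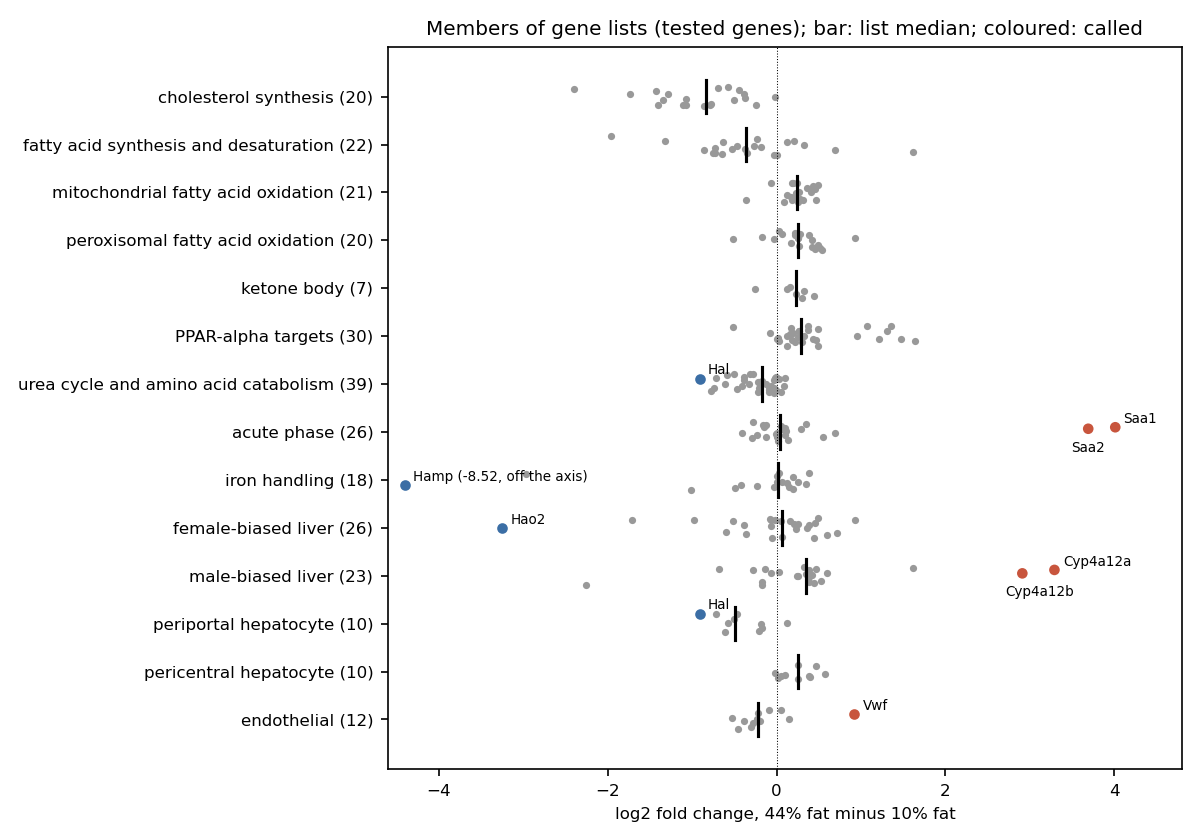
Log2 fold change (44% fat minus 10% fat) of every tested member of 14 gene lists; black bars are list medians, coloured points are called genes, and the number of tested genes stands beside each list. Cholesterol synthesis has the lowest median (-0.83) of the 14 lists and no called gene; Hamp at -8.52 is drawn at the edge of the axis.

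Of 20 tested lipid droplet genes none was called (median 0.16). Cidec, a lipid droplet protein gene known to rise in fatty liver, stood at 1.06, 1.87, 1.35 and 1.27 CPM on 10% fat and at 2.46, 3.59, 3.9 and 4.35 CPM on 44% fat. All libraries on 44% fat were above all controls, and 1.36 ± 0.75 did not pass (adjusted p = 0.629, edgeR). Plin2, which coats lipid droplets, and the fatty acid transporter gene Cd36 were at 0.12 ± 0.33 and 0.03 ± 0.34. The bile acid enzyme gene Cyp7a1 was at -0.08 ± 0.52 and the leptin receptor gene Lepr at -0.06 ± 0.39. Chrna2, a nicotinic receptor subunit gene, stood at 2.03, 8.77, 1.87 and 0.754 CPM on 10% fat and at 7.14, 8.69, 16.4 and 16.1 CPM on 44% fat. Control replicate 2 again lay among the libraries on 44% fat, and 1.85 ± 0.44 did not pass (adjusted p = 0.0691, edgeR). Ccnd1 (cyclin D1) stood at 9.37 to 14 CPM on 10% fat and at 17.9 to 51.6 CPM on 44% fat without overlap, at 1.32 ± 0.35 (adjusted p = 0.104, edgeR), and 0 of 29 cell cycle genes were called. In this list 26 had positive fold changes, with a median of 0.39. It was 0.17 without 44% fat replicate 1, 0.60, 0.59 and 0.62 without control replicate 2, control replicate 4 and 44% fat replicate 4, and 1.40, 0.10 and -0.17 within runs 1, 2 and 3 alone. Ccnd1 was called without 44% fat replicate 1 and in DESeq2. No gene was called among the lists of bile acids (27 tested), glycolysis (23), gluconeogenesis (18), stress of the endoplasmic reticulum (25), interferon response (39) or the clock (19).

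The next question was whether these differences were those of other groups on the same diets, with no library shared between the groups. CAST/EiJ males had 2 genes called for diet (0.012%), C57BL/6J females 17 (0.102%) and NZO/HlLtJ females 81 (0.486%). Of the 33 genes, 25 had the same sign in CAST/EiJ males, and 14 of these had an unadjusted p under 0.05, against 58.5% of all genes with the same sign and 5.31% with such a p as well. In C57BL/6J females 31 shared the sign and 9 such a p (53.6% and 6.02% of all genes), and in NZO/HlLtJ females 26 and 10 (49.2% and 5.73% of all genes). Ipo9 was the 1 gene of opposite sign with such a p, at 0.14 in NZO/HlLtJ females (unadjusted p = 0.0285, edgeR). Meg3 was also called in CAST/EiJ males, at 1.74, and Gpc1 in NZO/HlLtJ females, at 1.54 (adjusted p = 0.011 and 0.0178, edgeR). Ephx2 was at 0.54 in CAST/EiJ males, close to the 0.56 of females, and Pla1a was negative in all 4 groups, at -0.62, -0.43, -0.32 and -0.40.

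Saa1 was at -0.93 in CAST/EiJ males, 0.78 in C57BL/6J females and -1.29 in NZO/HlLtJ females, none of them called. Cyp4a12a was at 3.32 in C57BL/6J females and 2.82 in NZO/HlLtJ females, beside 3.29 in CAST/EiJ females, and neither passed (adjusted p = 0.157 and 0.0552, edgeR). Its levels were low there. C57BL/6J females had 0.0404 to 0.176 CPM on 10% fat and 0.0751 to 2.6 CPM (median 0.317) on 44% fat, with overlap. NZO/HlLtJ females had 0.152 to 0.603 CPM on 10% fat and 0.633 to 3.99 CPM on 44% fat. These fold changes are imprecise and do not show a shared size of effect. In CAST/EiJ males it was at -0.10. Fras1 was at -1.03 in CAST/EiJ males, with 28.7 to 42.7 CPM on 10% fat and 13 to 22.7 CPM on 44% fat (adjusted p = 0.355, edgeR). Hamp was at -4.85 in CAST/EiJ males (adjusted p = 0.268, edgeR).

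**Figure D5:**
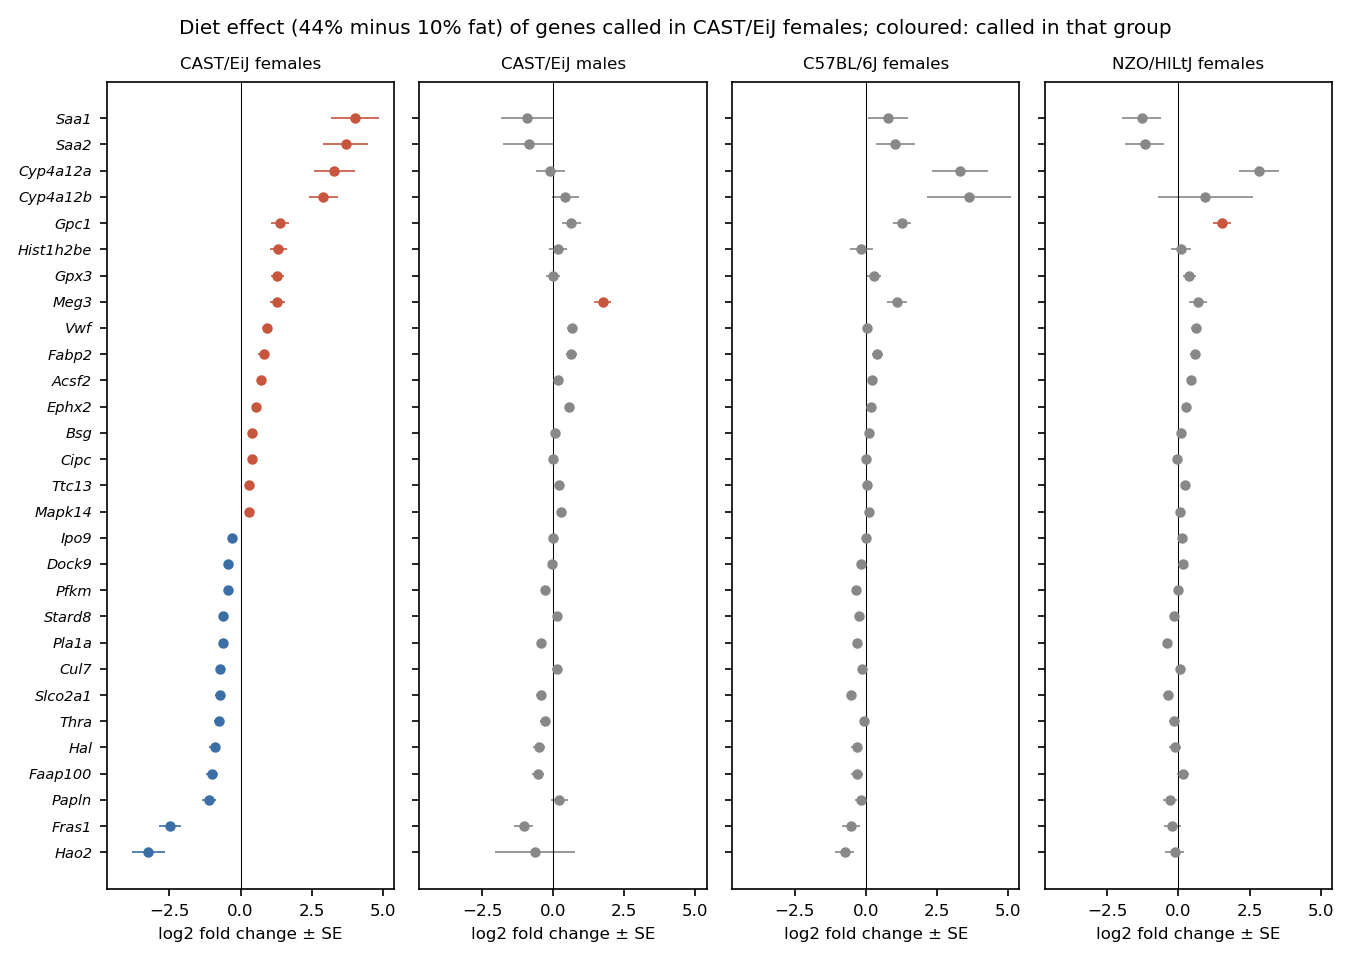
Log2 fold change for diet with its standard error (x axis) of 29 of the 33 genes called in CAST/EiJ females (Hamp and Kcne4 are among the 4 left out), in CAST/EiJ females, CAST/EiJ males, C57BL/6J females and NZO/HlLtJ females; coloured points are called in that group. Outside CAST/EiJ females the coloured points are Meg3 in CAST/EiJ males and Gpc1 in NZO/HlLtJ females.

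The test of the difference itself called almost nothing. The diet effect of CAST/EiJ females differed from that of CAST/EiJ males in 0 genes (0%), with 669 at an unadjusted p under 0.05 in edgeR, 14 called by DESeq2 and 0 by limma. It differed from that of NZO/HlLtJ females in 0 genes (0%), with 1658 at such a p in edgeR, 64 called by DESeq2 and 18 by limma. With the identifier run as a covariate, 0 genes were called for this difference and 1400 had such a p in edgeR. Against C57BL/6J females 1 gene was called (0.00601%), and 1316 had such a p. That gene, Tstd1 (a thiosulfate sulfurtransferase-like gene, chr1:171418872-171420352), stood at 6.54, 7.37, 5.86 and 8.12 CPM on 10% fat and at 3.91, 5.4, 3.21 and 3.23 CPM on 44% fat in CAST/EiJ females. There it was lower in every library on 44% fat, at -0.83 ± 0.20 (adjusted p = 0.0793, edgeR). In C57BL/6J females it rose by 0.97 ± 0.21, from 1.74 to 3.01 CPM to 3.08 to 6.57 CPM (adjusted p = 0.0434, edgeR). The difference of the effects was -1.80 (adjusted p = 0.0046, edgeR), and it stayed called in all 16 refits that left out 1 library. For the genes named above, then, a call in CAST/EiJ females and none elsewhere is not shown to be a difference between the groups.

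Few of the 33 calls held without each library in turn. Acsf2, Fras1, Vwf and Cyp4a12b were called in all 8 refits and Hao2 in 7, and the other 26 genes named here in 1 to 6. All 31 named called genes kept their direction in all 8 refits. Limma on the deposited log2 values did not call Hamp, Saa1, Saa2, Cyp4a12a or Papln. With the 8 libraries fitted alone, where the spread rests on fewer samples, 1 gene was called, Gpc1 (1.38, adjusted p = 0.0107, edgeR), which the run covariate had removed from the calls, and Hamp did not pass the filter on low counts. Within each identifier run taken alone the 31 genes kept their direction too. These counts of direction come from the libraries on which the genes were called. For genes whose diets do not overlap, the sign in any subset was all but fixed, so the counts are no separate support.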

How the data were processed

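Polyadenylated RNA from liver was sequenced in 47 libraries of 12 groups (strain, sex and diet), and the 8 of CAST/EiJ females are described here. Genes were measured with expected counts that the authors deposited (20.3% of values are not whole at a tolerance of 1e-06), and no source used here names the aligner, the counter or its use of strand. The authors also deposited variance-stabilized log2 values, and the submitters' processing notes name DESeq2 and build GRCm38. Here the counts were rounded to whole numbers, and edgeR 4.0.16 (R 4.3.3) fitted a quasi-likelihood model with 12 groups over all 47 libraries (filterByExpr, TMM scaling, robust, 35 residual degrees of freedom). P-values were adjusted by Benjamini-Hochberg over the 16650 genes tested. CPM values are scaled by TMM and not by length, so levels are not compared between genes. In data simulated for the diet effect on 16485 genes, 51% of 100 genes changed 1.5-fold and 78% of 100 genes changed 2-fold were recovered. Of 136 calls there, 7 were false. Changes were planted only in genes above a minimum mean level, and counts were drawn independently at the fitted spread. No library was made to stand apart from its group, so these shares need not hold for the real libraries.

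Alternatives were DESeq2 1.42.0, limma 3.58.1 on the deposited log2 values, other scaling, filters and covariates, subsets of libraries, and leaving out each library. Genes were named by a rule: in each direction, the 12 called genes of largest fold change whose mean log2 CPM is at least 0, up to 4 members of smallest p per pathway list, and a fixed list. Bsg, Cipc, Ttc13, Mapk14, Kcne4, Tm7sf2, Got1, Gls2, Sds, Ass1, Gulo, Fcgr2b, Stab1, Chad, Rgs5, Amdhd1, Cbs, Agxt, Acot1, Apoa4 and Vil1 are outside that rule and were named after their values were seen. The members and lists were chosen with earlier results of these data known. Promoter sequences are RefSeq's (3 of 3 genes matched); Cyp4a12a and Cyp4a12b are named only. Results of some genes are not reported here.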

Additional observations from a re-analysis of the deposited data

Results flagged for a closer look

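In 9 of 150 groups of 4 libraries checked, 1 library lay far from the other 3 (its gap to the nearest, divided by the range of all 4, passed Dixon's critical value), where chance gives about 1 in 20. On 10% fat these were Cyp4a12a in replicate 3 (0.615 CPM, next 0.223), Chrna2 in replicate 2 (8.77, next 2.03), Bdh1 in replicate 4 (235, next 220) and Acat1 in replicate 4 (284, next 329). On 44% fat they were Slco2a1 in replicate 1 (48.4 CPM, next 34.2), Srebf1 in replicate 1 (431, next 302), Rgs5 in replicate 1 (57.4, next 68.7), Acat1 in replicate 2 (580, next 392) and Pdk4 in replicate 3 (87.4, next 13.5). Bdh1 and Acat1 are genes of ketone body metabolism and Rgs5 is a pericyte and stellate cell marker. The diet effect on Tstd1 differed between CAST/EiJ females and C57BL/6J females by -1.80 on the log2 scale (adjusted p = 0.0046, edgeR).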

How the results depend on the processing

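The 33 calls for diet became 89 in DESeq2 (33 shared), 52 in limma (28 shared, 71.2% higher against 57.6%), 21 with the 15 CAST/EiJ libraries alone (8 shared), 1 with the 8 CAST/EiJ female libraries alone (1078 at an unadjusted p under 0.05 in edgeR), and 4, 0 (665 at such a p in edgeR) and 1 within identifier runs 1, 2 and 3 alone. Leaving out 1 library gave 6 (without 10% fat replicate 4) to 163 calls (without 10% fat replicate 2, 30 shared), with 10 without 10% fat replicate 1, 10 without replicate 3, and 61, 20, 24 and 8 without 44% fat replicates 1 to 4. The difference from CAST/EiJ males gave 14 calls in DESeq2, 1 with the 15 CAST/EiJ libraries alone and 0 to 3 with 1 library left out (3 without CAST/EiJ male 10% fat replicate 1). The difference from C57BL/6J females gave 15 in DESeq2 and 1 to 6 with 1 library left out (6 without CAST/EiJ female 10% fat replicate 2). The difference from NZO/HlLtJ females gave 9 under a minimum of 1 CPM in 4 libraries, 1 with a clock gene score as covariate, 64 in DESeq2, 18 in limma and 0 to 33 with 1 library left out (33 without CAST/EiJ female 10% fat replicate 2). Among uncalled genes the sign reversed in run 2 alone for Srebf2 (0.20), Srebf1 (0.45), Fasn (0.33), Scd1 (0.33), Acaca (0.08), Pdk4 (-0.77), Plin2 (-0.43), Cd36 (-0.31) and Cyp7a1 (0.03), in run 3 alone for Pdk4 (-0.06), Cyp7a1 (0.21) and Lepr (0.52), with run as a covariate for Pdk4 (-0.12) and Cyp7a1 (0.04), and in limma for Cyp7a1 (0.07). With 1 library left out, Pdk4 ran from -1.53 to 1.48, Cd36 from -0.17 to 0.22, Cyp7a1 from -0.28 to 0.52 and Lepr from -0.24 to 0.30. The causes were not tested. No paired analysis was possible because the labels give no replicate numbers. Hamp, Hao2 and Cyp4a12a have libraries with few reads, so their fold changes are imprecise.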
